A study of Arabidopsis thaliana with 15 samples.

Results

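The TBL genes (TRICHOME BIREFRINGENCE-LIKE) of Arabidopsis thaliana were followed through 48 h of an induced differentiation of xylem, the water-conducting tissue. Members were the probe sets whose single annotated gene symbol begins with TBL and a digit, TBR, or RWA and a digit. This gave 22 TBL probe sets among the 22746 that were not controls, and 0 for TBR and 0 for RWA. RefSeq lists 50 loci of these families in Arabidopsis, and the loci without a probe set of that symbol were not analysed here as members. Of the 22 members, 17 reached a group mean signal of 30.7, the filter on dim signals, and were tested. The other 5 (TBL15, TBL19, TBL20, TBL21 and TBL42) stayed below it at every time.

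The samples were leaf disks of 1 mm diameter, cut from rosette leaves of 25-day-old Col-0 seedlings grown under continuous light. All 12 arrays of 12, 24, 36 and 48 h came from disks kept in the same medium. It held 2,4-D, a synthetic auxin, at 1.25 mg/L, the cytokinin kinetin at 0.25 mg/L, and bikinin, an inhibitor of GSK3 kinases that activates brassinosteroid responses, at 10 µM. The 3 arrays of 0 h are the starting disks, and there were 3 arrays at each later time. No disks cultured without the hormones were among the samples, so the hormones, cutting, culture and time cannot be told apart. The disks hold whole leaf tissue, in which fewer cells of a type and less RNA per cell cannot be told apart either. Whether the 3 arrays of a time came from separate cultures is not stated, so the spread that the p-values rest on may be technical. Arrays are numbered by the replicate number of their titles, and the third 36 h array, which has none, is called array 3.

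Many polysaccharides of the plant cell wall carry acetyl groups, which are attached in the Golgi. RWA proteins (REDUCED WALL ACETYLATION) are membrane proteins thought to pass the acetyl donor into that compartment, and many TBL proteins are the transferases that place the acetyl group on a given polysaccharide. Acetylated xylan is the main hemicellulose of the secondary walls that thicken xylem vessels, and plants whose xylan lacks acetyl groups form collapsed vessels. Other TBL proteins act on glucomannan, xyloglucan or pectin. TBR itself was named for trichomes whose walls hold little crystalline cellulose.

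The arrays of 0 h stood apart: across the 17829 probe sets tested, a 0 h array correlated with a later array at 0.562 to 0.707, and arrays of the same time correlated at 0.886 to 0.954. The summed signal of the 3 measured photosynthesis markers (of 8 listed) was 604.9 to 2016 at 12 h and 524 to 1259 at 48 h, against 54533 to 85162 at 0 h. That of the 4 measured xylem markers (of 14) was 3234 to 4288 at 48 h, against 311 to 397 at 0 h, and that of TRY, the 1 measured trichome marker of 7, was 1.71 to 10.7 against 62.3 to 213. The xylem sum lay above that of 0 h at every later time, at 709 to 1281 for 12 h, 408 to 2225 for 24 h and 1851 to 4074 for 36 h. Its 4 markers were IRX15, IRX15-L, GUT2 and the peroxidase gene PRX52, and PRX52 made up most of the sum at 12 h. The log2 changes of IRX15, IRX15-L and GUT2 at 12 h against 0 h were 0.16, -0.51 and -0.48. None of these passed the limma test used below. TRY overlapped 0 h at 12 h (74.1 to 115) and lay below it at 24 h (3.06 to 6.94) and 36 h (1.17 to 5.94). The 2 measured phloem markers (of 7) summed to 855 to 1609 at 12 h and 604 to 1064 at 48 h, against 5050.2 to 7822 at 0 h. The 3 procambium markers (of 7) summed to 2247 to 3155 at 12 h and 3855 to 4313 at 48 h, against 594 to 1445 at 0 h. The 1 guard cell marker (of 3), FMA, was at 78.0 to 161 at 48 h, against 338 to 509.6 at 0 h, and the 1 epidermis marker (of 4), FDH, at 828 to 1717 against 2594 to 10489. Markers of several cell types thus moved with each comparison against 0 h, and their part in the TBL results was not tested.

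In the comparison of 48 h with 0 h, TBL39, TBL34, TBL45, TBL18, TBL23 and TBL16 rose and TBL41 and TBL30 fell. A call is an adjusted p under 0.05 from limma's moderated test, with Benjamini-Hochberg adjustment over all probe sets tested. These were 8 of 17 members at 48 h, beside 57.0% of all probe sets called, with 6 higher beside 33.3% of all and 2 lower beside 23.7% of all. The signals of the 48 h and 0 h arrays did not overlap for 7 of the 17, beside 62.1% of all probe sets. The members' median log2 change was 0.64, beside 0.22 over all probe sets. Log2 changes are given with the standard error of the fit, n = 3 arrays per time, and folds are 2 to the power of the log2 change.

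At 12 h against 0 h limma called 5 of 17 members (45.6% of all probe sets), 1 higher (23.7% of all) and 4 lower (21.9% of all), and the arrays did not overlap for 6 members (51.0% of all). The members' median was -0.39, beside -0.03 over all probe sets. At 24 h against 0 h it called 6 (49.6% of all), 4 higher (27.4% of all) and 2 lower (22.2% of all), with 10 members not overlapping (56.1% of all). With each array centred on its median, the 24 h count was 2 higher and 2 lower, without TBL16 and TBL18. At 36 h against 0 h it called 5 (56.2% of all), 4 higher (32.3% of all) and 1 lower (23.9% of all), with 9 members not overlapping (61.3% of all). An F test of any change from 0 h called 8 of 17 members, beside 60.0% of all probe sets.

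**Figure D1:**
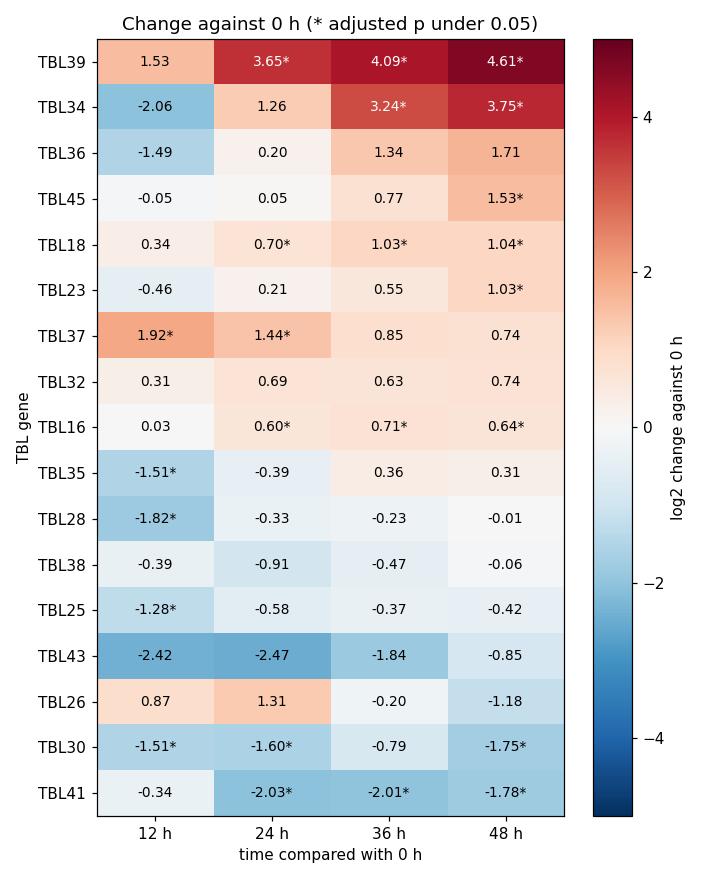
Log2 change of the 17 tested TBL genes (rows, ordered by the change at 48 h) at the 4 later times (columns) against 0 h, in red for higher and blue for lower signals, with the value in each cell and an asterisk where the adjusted p was under 0.05. TBL39 and TBL34 stand at 4.61 and 3.75 at 48 h, TBL41 and TBL30 at -1.78 and -1.75, and 4 genes carry an asterisk below 0 at 12 h.

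Among the members tied to xylan, TBL34 had the largest rise at 48 h against 0 h, and it was called from 36 h on. TBL34 encodes an acetyltransferase of the xylan backbone. Its signals were 38.7, 55.6 and 59.5 at 0 h, 1.94, 22.7 and 39.9 at 12 h, 90.4, 221 and 87.9 at 24 h, 683, 694 and 229 at 36 h, and 1047, 613 and 489.9 at 48 h. All arrays of 36 and 48 h lay above all those of 24 h and earlier, and 1 array of 12 h lay far below the rest. TBL34 was 9.46-fold higher at 36 h than at 0 h (log2 change 3.24 ± 0.89, adjusted p = 0.0080) and 13.5-fold higher at 48 h (3.75 ± 0.89, adjusted p = 0.0033). At 12 and 24 h it did not pass the test (-2.06 and 1.26), although all arrays of 24 h lay above those of 0 h. Between 12 and 24 h it rose by 3.32 ± 0.89 on the log2 scale, with no overlap of the arrays, and was not called (adjusted p = 0.0954). The size of this step is uncertain, as 2 of the 12 h signals lay below 30.7.

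TBL35 encodes a further acetyltransferase of xylan, and it followed a dip and a return. Its signals were 115, 106 and 113 at 0 h, 39.7, 34.8 and 42.7 at 12 h, 106, 60.5 and 94.7 at 24 h, 169, 119 and 143 at 36 h, and 163, 111 and 144 at 48 h. The 12 h arrays lay below all other arrays of the course. TBL35 fell by 1.51 ± 0.24 on the log2 scale at 12 h against 0 h (2.85-fold, adjusted p = 2.61e-04), and at the later times it was not called against 0 h. Between 12 and 24 h it rose 2.17-fold (1.12 ± 0.24, adjusted p = 0.0468), a call lost without any 1 of the 6 arrays, with log2 changes from 0.96 to 1.36, and under 6 of 8 other settings.

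TBL30 and TBL28, which lie next to each other on chromosome 2 and both encode xylan acetyltransferases, were among the dimmer tested members. TBL30 was picked out beforehand for its fall in these data, so its values are given as a description. Its signals were 29.7, 38.3 and 54.9 at 0 h, 8.39, 16.4 and 19.8 at 12 h, 15.3, 13.0 and 11.4 at 24 h, 17.5, 20.8 and 33.0 at 36 h, and 4.36, 26.0 and 14.5 at 48 h. All 3 arrays of 12, 24 and 48 h lay below those of 0 h, and 36 h overlapped 0 h with 1 array. Only 3 of its 15 signals passed 30.7. Its geometric mean reached 30.7 only at 0 h (39.7, against 11.8 to 22.9 later). The filter thus kept it through the time where it was brightest. Against 0 h the log2 change (each ± 0.55) was -1.51 for 12 h, -1.60 for 24 h, -0.79 for 36 h and -1.75 for 48 h. With signals under 30.7 set to that value, the change was -0.39 and not called at 12, 24 and 48 h alike. With a trended and robust prior the calls at 12 h (adjusted p = 0.0810) and 24 h (adjusted p = 0.0617) were lost. The 48 h call was also lost without array 3 of 0 h (-1.51) or array 1 of 48 h (-1.03). The 12 h call was lost without array 2 of 0 h (-1.53), array 3 of 0 h (-1.27), array 1 of 12 h (-1.14) or array 2 of 12 h (-1.62). The 24 h call was lost without array 2 of 0 h (-1.62), array 3 of 0 h (-1.36), array 2 of 24 h (-1.59) or array 3 of 24 h (-1.49).

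TBL28 was called lower at 12 h alone. Its signals were 86.6, 17.9 and 77.5 at 0 h, 10.5, 26.9 and 9.60 at 12 h, 33.3, 53.2 and 34.2 at 24 h, 68.6, 42.3 and 25.4 at 36 h, and 47.9, 41.7 and 58.7 at 48 h. The array groups of 12 and 0 h overlapped, as array 2 of 0 h was as dim as the 12 h arrays. TBL28 fell by 1.82 ± 0.59 on the log2 scale at 12 h (adjusted p = 0.0225). The call was lost without array 1 of 0 h (-1.42), array 3 of 0 h (-1.50), array 1 of 12 h (-1.62) or array 3 of 12 h (-1.55), and with dim signals set to 30.7 (-0.94), and without array 2 of 0 h the change was -2.55.

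TBL32, also a xylan acetyltransferase gene, did not pass the test against 0 h at any time. Its mean signal was 118 ± 7.32 at 0 h, 191 ± 29.9 at 24 h and 208 ± 80.5 at 48 h (SD, n = 3). The log2 change at 48 h was 0.74 ± 0.31 (adjusted p = 0.0621), and 1.08 (adjusted p = 0.0092) without array 1 of 48 h, the dimmest 48 h array at 123. The suffix of its probe set (_s_at) marks probe sets that can match more than 1 transcript, so this value is uncertain as one of TBL32 alone.

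**Figure D2:**
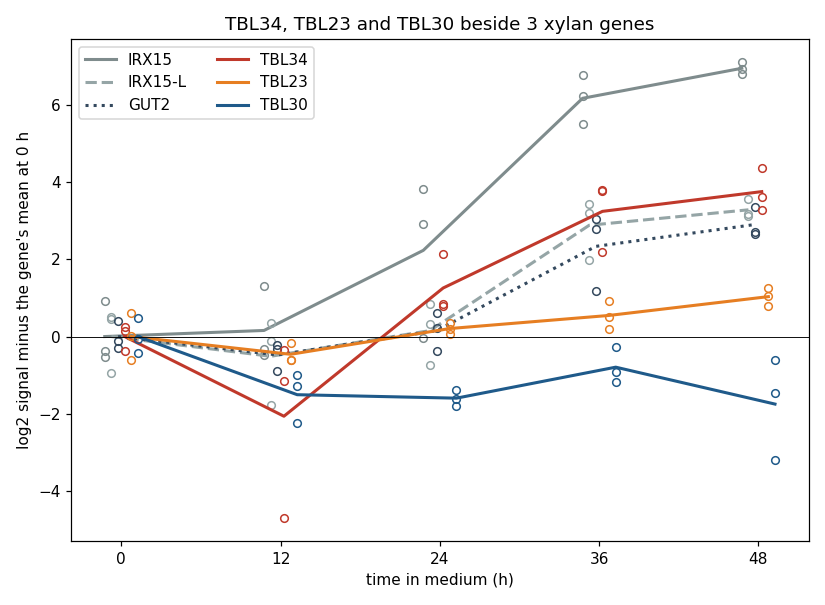
Log2 signal minus the gene's own mean at 0 h (vertical axis) over the 5 times (horizontal axis, points moved sideways for view) for TBL34, TBL23 and TBL30 and the xylan genes IRX15, IRX15-L and GUT2, with a circle for each array and a line through the means of 3 arrays. TBL34 reaches 3.75 at 48 h, between IRX15 at 6.95 and IRX15-L at 3.28, while TBL30 ends at -1.75.

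Genes of xylan synthesis were used as the yardstick of secondary walls. Of 22 listed genes of xylan synthesis 4 were measured, and all 4 were called higher at 48 h against 0 h, beside 33.3% of all probe sets. IRX15 rose by 6.95 ± 0.82, IRX15-L by 3.28 ± 0.60, GUT2 by 2.90 ± 0.45 and GUT1 by 0.55 ± 0.20 (log2 changes, adjusted p = 2.08e-05, 5.59e-04, 1.57e-04 and 0.0354). IRX15 and IRX15-L act in xylan synthesis, and GUT1 and GUT2 encode xylan glycosyltransferases. IRX15 was dim at 0 h (4.17 to 11.4), so its fold is uncertain in size (4.61 on the log2 scale with signals below 30.7 set to that value). The GUT1 call was lost without array 2 of 0 h (0.59), array 3 of 0 h (0.42), array 1 of 48 h (0.43) or array 3 of 48 h (0.49), with median centring (0.36) or quantile normalization (0.41), and with no filter or only the groups compared. Against 24 h, 3 of the 4 were called higher at 48 h (IRX15 4.72, IRX15-L 3.13 and GUT2 2.75), beside 4.10% of all probe sets.

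Of the 17 members, 0 met the rule for a late rise with the signals as they stood and no block for the replicate number. The rule asked for a called rise at 48 h against both 0 h and 24 h, and 3.24% of all probe sets met it. In the comparison of 48 h with 24 h limma called 0 of 17 members (5 had an unadjusted p under 0.05), beside 6.41% of all probe sets, 4.10% higher and 2.31% lower. The groups of arrays did not overlap for 6 of 17 members, beside 35.3% of all. These were TBL34, TBL45, TBL23 and TBL35, higher at 48 h, and TBL37 and TBL26, lower at 48 h. TBL34 had the largest increase, 5.64-fold (2.50 ± 0.89, adjusted p = 0.112). With signals below 30.7 set to that value, the same change of 2.50 had an error of 0.46 and an adjusted p of 0.0049, and with an offset of 16 the adjusted p was 0.0117. With only the groups compared in the fit it was 0.0343. At 48 h against 0 h TBL34 was called under all 9 other settings, so it met the rule for a late rise under these 3.

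Arrays of 24 and 48 h with the same replicate number deviated together, as they did between 12 and 24 h. With the replicate number as a block, 3 members were called at 48 h against 24 h, beside 9.78% of all probe sets. TBL36 was higher (1.52 ± 0.36, adjusted p = 0.0331), TBL35 was higher (0.70 ± 0.18, adjusted p = 0.0432) and TBL26 was lower (-2.50 ± 0.60, adjusted p = 0.0348), whereas without the block their adjusted p-values were 0.359, 0.102 and 0.0713. Without the block TBL26 was also called lower under some other settings. These were signals below 30.7 set to that value (adjusted p = 0.0498), quantile normalization (adjusted p = 0.0496) and only the groups compared (adjusted p = 0.0245). With the block TBL36 was also called higher at 48 h than at 0 h (1.71 ± 0.36, adjusted p = 0.0027), so it met the rule for a late rise there. Between 12 and 24 h, 2 of 17 members were called without the block (1.23% of all probe sets), TBL35 upward (0.993% of all) and TBL41 downward (0.241% of all), with 7 members not overlapping (21.6% of all). The block kept both calls, beside 2.42% of all probe sets, and added TBL36 (1.69 ± 0.36, adjusted p = 0.0475). Between 24 and 36 h limma called 0 members (2 with an unadjusted p under 0.05, 0.112% of all probe sets called), and the arrays of 4 did not overlap (21.9% of all). Between 36 and 48 h it also called 0 (0 with an unadjusted p under 0.05, 0.00% of all called), and the arrays of 1 did not overlap (11.9% of all).

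**Figure D3:**
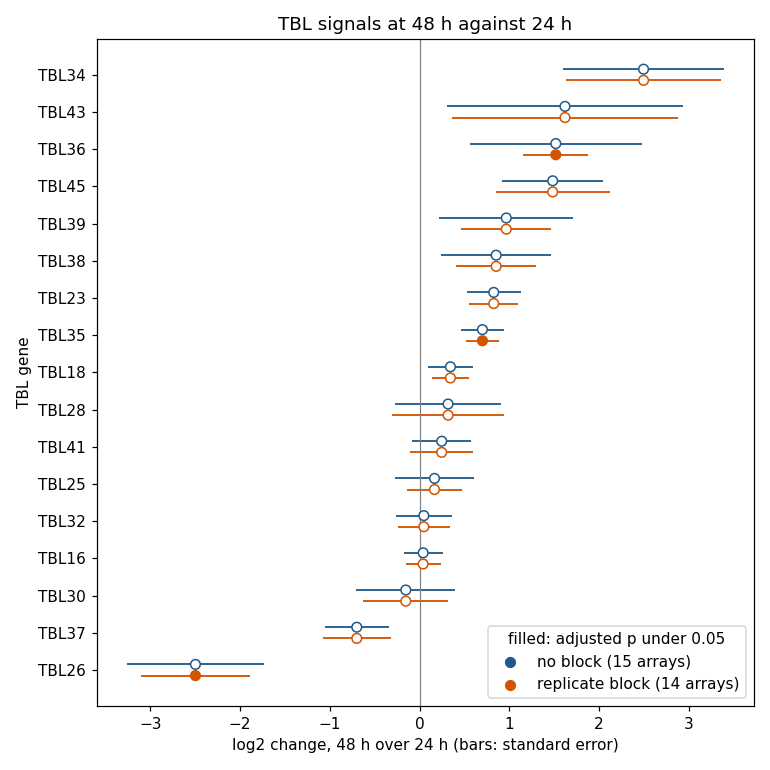
Log2 change at 48 h over 24 h (horizontal axis) with standard errors as bars for the 17 tested TBL genes (rows), in blue without and in orange with the replicate number as a block, filled where the adjusted p was under 0.05. TBL34 has the highest change at 2.50 and TBL26 the lowest at -2.50, and the filled points are those of TBL36, TBL35 and TBL26 with the block.

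The 3 members tied to glucomannan, TBL23, TBL25 and TBL26, went different ways. TBL23 was 2.05-fold higher at 48 h than at 0 h (1.03 ± 0.30, adjusted p = 0.0107). Its signals were 219, 334 and 142 at 0 h, 193, 144 and 143 at 12 h, 278, 251 and 229.6 at 24 h, 416, 313 and 249 at 36 h, and 522, 375 and 456 at 48 h. All 48 h arrays lay above all arrays of 0, 12 and 24 h. The call was lost when only the arrays of 0 and 48 h entered the fit (adjusted p = 0.0511).

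TBL26 was brightest at 12 and 24 h and dimmest at 48 h. Its signals were 917, 365 and 153 at 0 h, 1389, 1127 and 198 at 12 h, 1423, 1015 and 546 at 24 h, 255, 615 and 216 at 36 h, and 133, 190.2 and 174 at 48 h. The 48 h arrays lay below all arrays of 24 h but overlapped those of 0 h, which spread over a wide range. At 48 h the log2 change against 0 h was -1.18 ± 0.77 and not called (adjusted p = 0.205).

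TBL25 was lower at 12 h. Its signals were 471, 374 and 354 at 0 h, 241, 260.0 and 69.3 at 12 h, 332, 325 and 172 at 24 h, 331, 317 and 276 at 36 h, and 360.3, 323 and 225 at 48 h. It fell by 1.28 ± 0.44 on the log2 scale at 12 h (2.43-fold, adjusted p = 0.0312), with no overlap between the arrays of 12 and 0 h, and was not called at later times. The call was lost without array 1 of 0 h (-1.16), array 2 of 0 h (-1.32) or array 3 of 12 h (-0.66). Of 12 listed genes of glucomannan synthesis 2 were measured, and the mannan synthase gene CSLA03 fell by 3.21 ± 1.09 at 48 h (adjusted p = 0.0241), a call lost without array 2 of 0 h (-2.87), array 3 of 0 h (-3.07) or array 3 of 48 h (-2.75), and the change was -2.51 with an offset of 16.

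The largest rise among the 17 tested members was that of TBL39, a member whose polysaccharide is not named here. Its signals were 26.4, 34.3 and 39.4 at 0 h, 154, 164 and 34.1 at 12 h, 749, 630.1 and 148 at 24 h, 878, 745 and 272 at 36 h, and 955, 1321 and 413 at 48 h. From 24 h on every array lay above all those of 0 h, and replicate 3 was the lowest of the 3 arrays at 12, 24, 36 and 48 h. TBL39 was 12.5-fold higher at 24 h than at 0 h (3.65 ± 0.74, adjusted p = 0.0014), 17.1-fold at 36 h and 24.4-fold at 48 h (4.61 ± 0.74, adjusted p = 2.18e-04). Without array 3 of 24 h the 24 h change was 4.38, and without array 3 of 12 h the 12 h change, 1.53 and not called with all arrays, was called at 2.27. Its 0 h signals lay near 30.7, so the folds are uncertain in size.

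TBL18 and TBL16 rose by less and over the same times. TBL18 signals were 336, 351 and 223 at 0 h, 384, 366 and 380.3 at 12 h, 567, 448 and 443 at 24 h, 640.5, 468 and 740.2 at 36 h, and 808, 530.2 and 537 at 48 h. All later arrays lay above all those of 0 h. TBL18 was 1.62-fold higher at 24 h (0.70 ± 0.25, adjusted p = 0.0357) and 2.06-fold at 48 h (1.04 ± 0.25, adjusted p = 0.0037). The 24 h call was lost with median centring (0.64) and without array 3 of 0 h (0.49), array 1 of 24 h (0.58), array 2 of 24 h (0.75) or array 3 of 24 h (0.76).

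TBL16 signals were 209, 171 and 179 at 0 h, 171, 206 and 192 at 12 h, 344, 241 and 265 at 24 h, 364, 279.8 and 273 at 36 h, and 339.6, 228 and 309 at 48 h. The arrays of 24, 36 and 48 h lay above those of 0 h by a small margin. The log2 change was 0.60 ± 0.22 at 24 h, 0.71 at 36 h and 0.64 at 48 h (adjusted p = 0.0381, 0.0150 and 0.0250). The 48 h call was lost with median centring (0.45) or quantile normalization (0.45), and without array 2 of 0 h (0.58), array 3 of 0 h (0.61), array 1 of 48 h (0.52) or array 3 of 48 h (0.59). The 24 h call was lost with median centring (0.54), and without array 2 of 0 h (0.54), array 3 of 0 h (0.57), array 1 of 24 h (0.45) or array 3 of 24 h (0.64), and the 36 h call without array 1 of 36 h (0.58).

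TBL45 was raised at the end of the course. Its signals were 217, 819 and 1038 at 0 h, 701, 668 and 358 at 12 h, 551, 549.6 and 673 at 24 h, 1442, 616 and 1033 at 36 h, and 2854, 1001 and 1559 at 48 h. The 48 h arrays lay above all those of 24 h, and 1 of them lay below the brightest of 0 h. TBL45 was 2.89-fold higher at 48 h than at 0 h (1.53 ± 0.56, adjusted p = 0.0340). The call was lost with median centring (1.34), and without array 1 of 0 h (0.84), array 1 of 48 h (1.13) or array 3 of 48 h (1.57).

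TBL36 had a wide spread that followed the replicate number. Its signals were 186, 245 and 101 at 0 h, 91.9, 71.9 and 31.4 at 12 h, 379, 233 and 79.1 at 24 h, 1225, 625 and 98.8 at 36 h, and 1506, 605 and 179.5 at 48 h. Replicate 3 was the lowest array at every time, and each replicate number had its lowest signal at 12 h and its highest at 48 h or, in replicate 2, at 36 h. At 48 h the change against 0 h was 1.71 ± 0.96 (adjusted p = 0.143), and 2.52 (adjusted p = 0.0492) without array 3 of 48 h. At 36 h the change was 1.34 and not called, and without array 3 of 36 h it was 2.39 (adjusted p = 0.0369).

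TBL37 peaked early. In Arabidopsis it is known as a jasmonate-responsive wall acetylation gene with a part in defence against insects. Its signals were 369.7, 897 and 657 at 0 h, 3776, 1729.7 and 1791 at 12 h, 1819, 1593 and 1507 at 24 h, 1179, 1117 and 963 at 36 h, and 1273, 1005 and 798 at 48 h. All arrays of 12, 24 and 36 h lay above those of 0 h, and 48 h overlapped it. TBL37 was 3.77-fold higher at 12 h than at 0 h (1.92 ± 0.35, adjusted p = 7.66e-04) and 2.72-fold at 24 h (1.44 ± 0.35, adjusted p = 0.0047). At 36 and 48 h the changes of 0.85 and 0.74 were not called (adjusted p = 0.0581 and 0.0909), but without array 2 of 0 h the 48 h change was 1.03 (adjusted p = 0.0334).

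TBL41 was not called at 12 h and fell by 24 h. Its signals were 59.3, 77.4 and 90.7 at 0 h, 67.1, 52.1 and 59.0 at 12 h, 12.5, 25.4 and 19.1 at 24 h, 22.2, 19.1 and 14.97 at 36 h, and 31.6, 14.1 and 22.9 at 48 h. The arrays of 0 and 12 h overlapped, and all later arrays lay below both. Against 0 h the log2 change was -2.03 for 24 h, -2.01 for 36 h and -1.78 for 48 h (each ± 0.33, adjusted p = 2.67e-04, 2.41e-04 and 5.75e-04). Since 8 of the 9 later signals lay below 30.7, the size is uncertain, and with those set to 30.7 the 24 h and 36 h changes were both -1.28, still called. Between 12 and 24 h TBL41 fell by 1.69 ± 0.33 (adjusted p = 0.0316), or by 0.94 with signals below 30.7 set to that value (adjusted p = 0.0178). The call was lost with no filter, a trended and robust prior or only the groups compared, and without array 1 of 12 h (-1.60), array 2 of 12 h (-1.79), array 3 of 12 h (-1.70), array 1 of 24 h (-1.42) or array 2 of 24 h (-1.93).

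TBL38 and TBL43 were not called at any time. With signals below 30.7 set to that value TBL43 was called lower at 48 h than at 0 h (-0.58, adjusted p = 0.0428). That floor made all TBL43 signals of 12, 24 and 36 h equal, and the standard error went from 1.31 to 0.23. The filter had also kept TBL43 through 0 h alone (geometric mean 32.3), so this call is not read as a fall. TBL38, known from seed coat mucilage as a pectin acetylesterase, averaged 326 ± 214 for 0 h, 203 ± 28.5 for 12 h, 145 ± 49.0 for 24 h, 218 ± 130 for 36 h and 277 ± 137 for 48 h (signal, SD, n = 3). TBL43 had mean signals of 41.8 ± 29.0 at 0 h and 20.7 ± 11.6 at 48 h, with 11 of its 12 later signals below 30.7. The dim members outside the test had mean signals of 15.1 to 28.7 for TBL15, 1.96 to 17.1 for TBL19, 9.88 to 24.5 for TBL20, 1.53 to 6.16 for TBL21 and 4.72 to 21.4 for TBL42 over the 5 times. TBL19 and TBL21 are neighbouring genes on chromosome 5, and both were in this dim group.

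**Figure D4:**
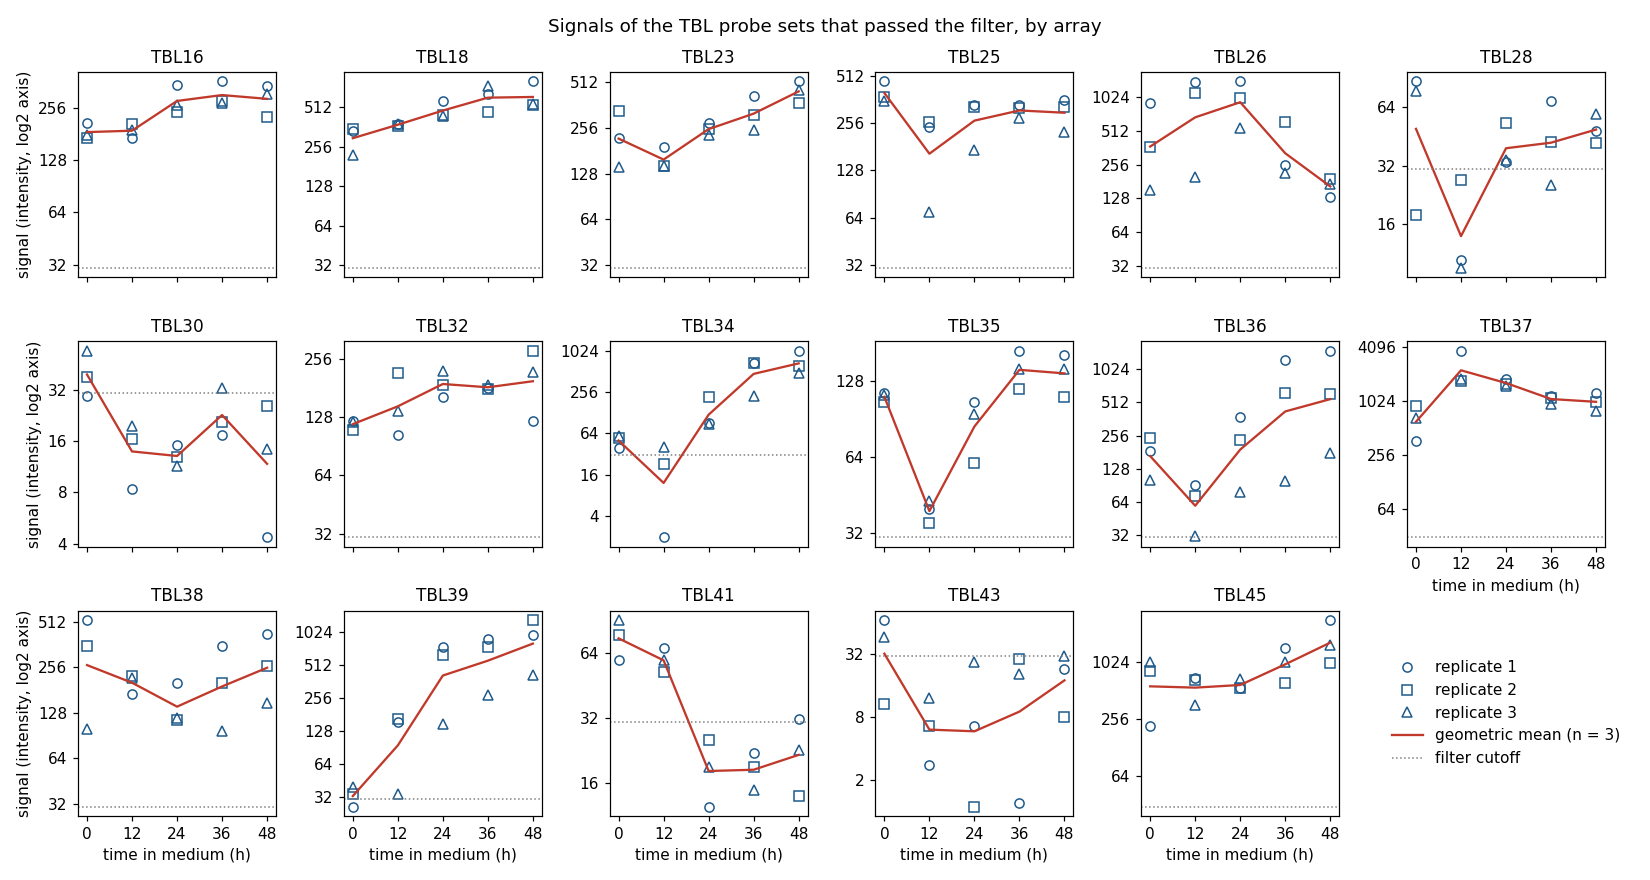
Signal of the 17 tested TBL genes (1 panel each, log2 vertical axis with its own range) over the 5 times, with a circle, square or triangle for replicate 1, 2 or 3, a red line through the geometric means of 3 arrays and a dotted line at the filter value of 30.7; the titles give the third 36 h array no number. TBL34 climbs from 12 h on to 489.9 to 1047 at 48 h, TBL35 has its minimum at 12 h, TBL41 lies below 32 from 24 h on, and replicate 3 is the lowest point of TBL36 at every time.

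As a description of likeness to the secondary wall genes, each member was correlated with the mean log2 signal of IRX15, IRX15-L and GUT2 over the 12 arrays of 12 to 48 h. The highest coefficients were those of TBL23 (0.86), TBL34 (0.86) and TBL35 (0.82), followed by TBL45 and TBL36 (both 0.71), and the lowest were those of TBL37 (-0.78) and TBL26 (-0.70). With the 0 h arrays, 15 in all, the coefficient of TBL34 was 0.86, that of TBL23 0.78 and that of TBL35 0.65. TBL30 had 0.04 over the 12 arrays. The 3 genes of the mean were each called higher at 48 h than at 24 h. GUT1, the fourth measured xylan gene, was not part of it and was not called there (0.54, adjusted p = 0.128). The reference itself thus rose late, and how far this choice raised the coefficients of members that rise late was not tested. These arrays also share their times, so genes with any trend over time correlate.

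Genes of acetyl-CoA supply, of other wall polysaccharides and of some cell types were also measured in part, and their link to wall acetylation was not tested. Of 6 listed genes of acetyl-CoA supply 5 were measured, and at 48 h against 0 h 4 rose and 1 fell, where 33.3% of all probe sets were called higher and 23.7% lower, as for the lists that follow. ACLA-2 and ACLA-1, subunits of the ATP citrate lyase that makes acetyl-CoA in the cytosol, rose 13.7-fold (3.78 ± 0.46, adjusted p = 2.77e-05) and 2.73-fold. ACS, an acetyl-CoA synthetase gene, rose 1.90-fold, and ACLA-3 fell by 0.75 ± 0.28 (adjusted p = 0.0348), a call lost without array 2 of 0 h (-0.53), array 3 of 0 h (-0.77), array 1 of 48 h (-0.77) or array 3 of 48 h (-0.64), and with no filter or only the groups compared. In the xyloglucan list 4 of 12 genes were measured and 2 rose, among them the glucan synthase gene CSLC5 (8.82-fold, adjusted p = 3.59e-05). In the list of secondary wall cellulose 1 of 7 was measured, COB, which orients cellulose in expanding cells, and it rose 1.97-fold (adjusted p = 0.0079). It was already called higher at 24 h than at 0 h (0.71) and was not called at 48 h against 24 h (0.27, adjusted p = 0.593). COB is therefore not read here as a measure of secondary walls. All 3 measured procambium and cambium genes of 7 rose, with CLE44 at 8.87-fold (log2 change 3.15, and 3.76 without array 1 of 0 h), all 4 measured photosynthesis genes of 10 fell, with LHCB4.2 114-fold lower, and TRY, the 1 measured trichome gene of 10, fell. The size of the TRY change is uncertain, as its 48 h signals lay below 30.7: on the log2 scale it was -4.68, -5.42 without array 2 of 48 h, -2.49 with an offset of 16 and -1.69 with signals below 30.7 set to that value. For the lists of acetylation genes under another symbol, acetylesterases and pectin synthesis, 0 genes were paired with a probe set and they were not analysed here.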

How the data were processed

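Per the labels' protocols, total RNA of the disks was turned into biotin-labelled cRNA for 1-colour Affymetrix arrays, 1 array for each of 15 samples. The authors deposited linear intensities, for which the submitters' processing notes name GCOS and MAS5, with versions not given in the sources used here. Each array has a mean of 500.045 to 500.06 after trimming 2%, as after scaling to a common level, which would hide a change shared by most transcripts. No detection calls were used.

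The authors' signals were log2 transformed as they stood, and the 64 control probe sets were left out. Probe sets were kept where the highest group mean of log2 signals reached the percentile 30, a signal of 30.7 (17829 of 22746). This value is not a limit of detection. limma 3.58.1 in R 4.3.3 was fitted on 5 group means over all 15 arrays (10 residual degrees of freedom), with 8 contrasts adjusted by Benjamini-Hochberg over all probe sets kept. The fit was tested on simulated data. Changes were recomputed under other settings (filter, offset, floor, centring, quantile normalization, prior, arrays in the fit, block, arrays left out). For the members these were the changes called with or without the block and, at 48 h against 0 h or 24 h, those of at least 0.5 on the log2 scale.

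Gene symbols came from GEO's platform annotation (13513 probe sets with 1 gene), and loci and neighbours through RefSeq's TAIR10.1 gene table. Context lists and the rule for named genes (every member, and up to 4 called genes of a list) were chosen, like the members, with earlier results of these data known.

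Replicate numbers come from the titles, and the third 36 h array has none. Deviations from group means correlated between arrays of the same number at 0.241 to 0.348 for 24 and 48 h and 0.147 to 0.449 for 12 and 24 h, so those comparisons are also given with the number as a block, without the unnumbered array. For 24 and 36 h they were 0.292 to 0.496 and for 36 and 48 h 0.324 to 0.476, with only 2 numbered pairs each. The unnumbered array correlated at 0.550 and 0.463 with array 3 of 24 and 48 h, and negatively with arrays 1 and 2. With the block 0 members were called in either step (0.483% and 0% of all probe sets). Against 0 h such correlations were weak but above 0, at 0.014 to 0.135. For 12 h they were 0.098 to 0.135, against -0.143 to 0.051 between arrays of different numbers.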

Additional observations from a re-analysis of the deposited data

How the results depend on the processing

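A selection of 68 changes was refitted under up to 9 other settings of the processing and without each array of the groups compared, and 0 turned their sign. For the members it took changes called with or without the block, or of at least 0.5 on the log2 scale at 48 h against 0 h or 24 h. The rest were changes given here for genes outside the members. Other uncalled changes were not part of it, and some turned their sign with the block. Among these was TBL34 at 48 h against 36 h, at 0.51 without the block and -0.15 with it. Of the 68, 42 stayed on the same side of the threshold under every such setting and 48 without any array. The count of members called at 12 h against 0 h was 5, and it was 2 with a stricter filter (percentile 50), which left dim members untested, 3 with dim signals set to the cutoff and 3 with only the groups compared in the fit. At 48 h against 0 h it was 8, and 4 with only the groups compared. Between 12 and 24 h it was 2, and 0 with no filter, with the stricter filter, with a trended prior or with only the groups compared, and 1 with an offset of 16, median centring or quantile normalization. At 48 h against 24 h it was 0, and 1 with the offset or quantile normalization, 2 with the floor or only the groups compared, and 3 with the replicate block. The cause was not tested. With only the groups compared, the calls against 0 h of TBL25 and TBL28 at 12 h, TBL16 and TBL18 at 24 h, TBL16 at 36 h, and TBL16, TBL23, TBL30 and TBL45 at 48 h were lost, and with no filter those of TBL30 at 12 h and of TBL16 and TBL18 at 24 h. Without 1 array the counts against 0 h were 3 to 5 for 12 h, 4 to 6 for 24 h, 4 to 7 for 36 h and 6 to 8 for 48 h, 0 to 1 between 12 and 24 h, and 0 to 0 for 36 h against 24 h, 48 h against 36 h and 48 h against 24 h. The F test, whose alternatives were chosen after seeing the data, called 8 to 10 members without 1 array and 12 with the replicate block (64.3% of all probe sets). Against 0 h, deviations of arrays with the same number correlated weakly (0.014 to 0.135), and these comparisons were not treated as paired. With the block, 7 members were called there for 12 h (50% of all probe sets), 6 for 24 h (53.7%), 6 for 36 h (55%) and 8 for 48 h (60.7%). TBL36 was then called at 12, 36 and 48 h and TBL39 at 12 h, and TBL45 was no longer called at 48 h (adjusted p = 0.0614). Signals under 30.7, as in TBL28, TBL30, TBL41 and TBL43, limit how far fold sizes can be read.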

Other observations

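Another 2 loci of the family are listed in the annotation table under their locus tags and so were not members. AT2G31110, which RefSeq also calls TBL40, had 2 probe sets, and both rose. The mean signal of the brighter one was 377 ± 104 at 24 h, 633 ± 251 at 36 h and 864 ± 411 at 48 h, against 151 ± 16.4 at 0 h (SD, n = 3 each). At 48 h it was 5.26-fold higher than at 0 h (log2 change 2.39 ± 0.43, adjusted p = 4.53e-04), and the dimmer one was 12.7-fold higher (3.66 ± 0.75, adjusted p = 0.0012), or 3.05 without array 1 of 0 h, 4.58 without array 2 of 0 h and 4.28 without array 3 of 48 h on the log2 scale. Its 0 h signals reached down to 8.88, so the fold is uncertain in size, and the change was 2.67 with signals below 30.7 set to that value and 2.80 with an offset of 16.

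AT5G06700, which RefSeq names TRICHOME BIREFRINGENCE, was lower at 12 h. Its mean signal was 576 ± 81.8 at 12 h, against 1449 ± 360 at 0 h, a log2 change of -1.31 ± 0.25 (adjusted p = 8.37e-04). At 48 h it was 1358 ± 210, and the change of -0.07 against 0 h was not called. The symbol TBR stands for this locus, but the annotation table did not carry it.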
